A study of Homo sapiens with 8 samples.

Results

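The 40 genes described here act at the end of G2 and in mitosis. They were chosen by name, from the roles of their products in the mitotic cell cycle, and every probe annotated to them was taken, with the older symbol CDC2 read as CDK1. All 40 had a probe on both array platforms, among 18852 genes with a probe on the Illumina arrays and 19775 on the Affymetrix arrays. They were represented by 60 Illumina probes and 82 Affymetrix probe sets.

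Total RNA of human breast cancer cells was measured on 8 arrays, 2 in each of 4 groups, lettered A and B as in the sample titles. The Illumina titles also carry the letters tr after the name of the line, which the labels do not explain. LM2, labelled highly metastatic and known as a lung-metastatic derivative of MDA-MB-231, was compared with its poorly metastatic parental line MDA-MB-231 on Illumina bead arrays. LM2 cells that over-express miR-126 (LM2-miR126) were compared with LM2 control cells on Affymetrix arrays. All cells were grown in DMEM with serum, both Affymetrix groups carry the LM2 background, and the labels name neither the vector behind the over-expression nor that of the control. Whether the 2 arrays of a group stem from separate cultures is not stated in the labels, so the p-values cover no more than the spread between these arrays, and that spread may be technical.

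A cell enters mitosis when CDK1, bound to cyclin A or cyclin B and freed of inhibitory phosphates by CDC25 phosphatases, phosphorylates its substrates. Chromosomes are then attached to the spindle through kinetochores, the spindle checkpoint holds back the anaphase-promoting complex until every chromosome is attached, and a midzone forms on which the cell divides. The RNAs of most of these proteins accumulate in G2, under the transcription factors FOXM1 and B-MYB and the MuvB complex, which binds a promoter element known as the cell cycle genes homology region (CHR), and they are low in resting cells. Their summed level in a culture therefore reflects both the share of cells near mitosis and the RNA per cell, and in bulk RNA fewer cells of a kind and less RNA per cell cannot be told apart.

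The promoters are shown because the genes share a sequence feature there that the choice by name did not use. RefSeq windows on GRCh38.p14, from 250 bases before to 50 bases after each start, were at hand for 33 of the 40 genes, in 43 windows. None was used for FOXM1, AURKA, BIRC5, BUB3, TTK, TPX2 and UBE2C. The CHR, read as TTTGAA on either strand, was found in 27 of the 43 windows (62.8%), against 5324 of all 35116 windows of the table (15.2%). The CCAAT box, read as CCAAT on either strand and bound by NF-Y, was found in 32 of the 43 windows (74.4%), against 34.6% of all windows. Both motifs stood together in 22 windows (51.2%), against 5.90% of all windows, and a CHR and a CCAAT box can share at most 1 base. Counted by gene, 24 of 33 genes held the CHR (72.7%) against 18.2% of 27305 genes, and 20 held both motifs (60.6%) against 7.26%. The E2F cores TTGGCGC and TTCCCGC were in 4 windows (9.30%) and 5 windows (11.6%), against 3.04% and 6.55% of all windows. A match of letters is a description of the window and does not show that a factor binds there.

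Below are 5 of the windows that hold both motifs, each 5′ to 3′ on the strand of its gene. Capitals mark the CHR and the CCAAT box, or their reverse complements TTCAAA and ATTGG. They belong to genes among the 6 highest or 6 lowest of a comparison, taken by the size of that difference, and ASPM and CENPF, which also hold both motifs, fell outside those 6. PRC1 lies at chr15:90994486-90994785 (minus strand), CCNB2 at chr15:59104896-59105195 (plus strand), KIF11 at chr10:92592880-92593179 (plus strand), MAD2L1 at chr4:120066799-120067098 (minus strand) and PLK1 at chr16:23678639-23678938 (plus strand).
PRC1: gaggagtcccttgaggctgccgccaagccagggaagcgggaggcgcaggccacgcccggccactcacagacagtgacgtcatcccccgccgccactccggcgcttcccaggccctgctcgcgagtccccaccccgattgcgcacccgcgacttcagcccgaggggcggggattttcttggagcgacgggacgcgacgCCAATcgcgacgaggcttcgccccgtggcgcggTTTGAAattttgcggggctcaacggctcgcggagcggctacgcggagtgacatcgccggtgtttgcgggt
CCNB2: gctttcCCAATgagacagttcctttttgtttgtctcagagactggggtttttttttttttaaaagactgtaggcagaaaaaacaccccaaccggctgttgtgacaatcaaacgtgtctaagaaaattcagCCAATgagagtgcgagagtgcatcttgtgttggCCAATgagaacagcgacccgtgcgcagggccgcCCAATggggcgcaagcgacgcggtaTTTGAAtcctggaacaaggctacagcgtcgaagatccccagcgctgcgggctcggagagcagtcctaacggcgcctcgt
KIF11: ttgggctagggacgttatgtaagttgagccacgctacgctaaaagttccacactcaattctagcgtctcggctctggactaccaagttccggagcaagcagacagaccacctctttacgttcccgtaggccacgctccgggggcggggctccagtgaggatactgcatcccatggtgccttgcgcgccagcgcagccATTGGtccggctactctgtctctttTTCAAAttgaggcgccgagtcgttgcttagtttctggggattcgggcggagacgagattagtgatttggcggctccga
MAD2L1: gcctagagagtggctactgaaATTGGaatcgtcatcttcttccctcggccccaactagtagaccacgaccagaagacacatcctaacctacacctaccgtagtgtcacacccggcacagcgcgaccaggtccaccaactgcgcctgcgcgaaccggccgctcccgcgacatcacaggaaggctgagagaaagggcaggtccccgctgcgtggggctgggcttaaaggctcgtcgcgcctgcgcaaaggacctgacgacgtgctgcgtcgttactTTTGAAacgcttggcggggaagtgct
PLK1: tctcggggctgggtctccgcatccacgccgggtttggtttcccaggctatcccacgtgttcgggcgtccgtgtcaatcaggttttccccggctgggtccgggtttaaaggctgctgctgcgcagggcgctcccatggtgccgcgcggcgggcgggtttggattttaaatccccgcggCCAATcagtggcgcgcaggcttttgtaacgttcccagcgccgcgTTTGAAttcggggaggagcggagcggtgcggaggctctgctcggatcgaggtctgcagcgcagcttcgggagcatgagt
The CHR of PRC1 starts 20 bases before the transcription start and its CCAAT box 53 bases before it. CCNB2 has its CHR 29 bases before the start and CCAAT boxes at 54, 87, 120 and 244 bases. In KIF11 both motifs lie on the reverse strand, 28 and 53 bases before the start. PLK1 has the CHR at 29 bases and the CCAAT box at 73 bases. MAD2L1 differs from these 4, with its CHR 25 bases after the start and a reverse CCAAT box 229 bases before it.

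The over-expressed microRNA is shown because its seed decides which transcripts it can pair with. RefSeq places both mature strands in 1 hairpin on the plus strand of chromosome 9, miR-126-5p at chr9:136670616-136670636 and miR-126-3p at chr9:136670653-136670674. In the sequences below capitals mark the seed, bases 2 to 8, and the 2 seeds differ. Pairing of these seeds with the 40 transcripts was not analysed here, and the level of the mature strands was not measured here.
hsa-miR-126-3p: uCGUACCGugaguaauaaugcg
hsa-miR-126-5p: cAUUAUUAcuuuugguacgcg

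The deposited intensities were scaled so that each array of a table had the same median, 94.39 on the Illumina arrays and 1 on the Affymetrix arrays, and the number of arrays limits the precision. Levels are given as log2(intensity + 16) on the Illumina arrays and as log2(intensity) after quantile normalization on the Affymetrix arrays. The 2 scales cannot be set against each other, and levels of different genes depend on their probes. A gene was tested where its probe averaged above the median of all probes, which left 12490 genes on the Illumina and 12923 on the Affymetrix arrays. The cells carried bright vimentin (VIM, between 14.64 and 15.12 on the Illumina arrays), while ESR1 and PGR, the hormone receptors that define other breast cancers, lay below the Illumina filter. On the Affymetrix arrays PGR lay below the filter and ESR1 above it, at 0.71 and 0.58 in LM2-miR126 and 0.46 and 0.58 in LM2 control. ESR1 was below the upper quartile there, 1.58. Of the fibroblast, endothelial, blood cell and melanocyte marker lists, COL1A2, CD14 and CD68 alone lay above the upper quartile of Illumina probes, and PECAM1 and MITF alone above that of Affymetrix probe sets. Of the breast epithelium and receptor status list, which includes VIM and CD44, 7 genes were tested on the Illumina arrays. In LM2 against MDA-MB-231, 2 lay above 0, KRT18 and VIM, and 5 below, ERBB2, EPCAM, CDH1, KRT8 and CD44. The cadherin gene CDH1 alone was called (adjusted p = 0.034, limma), with LM2 levels of 6.78 and 6.77 at the median of all probes, 6.77, and MDA-MB-231 levels of 7.33 and 7.30.

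All 40 genes passed the filter on both platforms. On the Illumina arrays 39 of them averaged above the upper quartile of all probes, which was 7.16. The exception was BUB1B, which encodes the checkpoint protein BUBR1 and averaged 7.05. On the Affymetrix arrays all 40 lay above the upper quartile of 1.58.

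**Figure D1:**
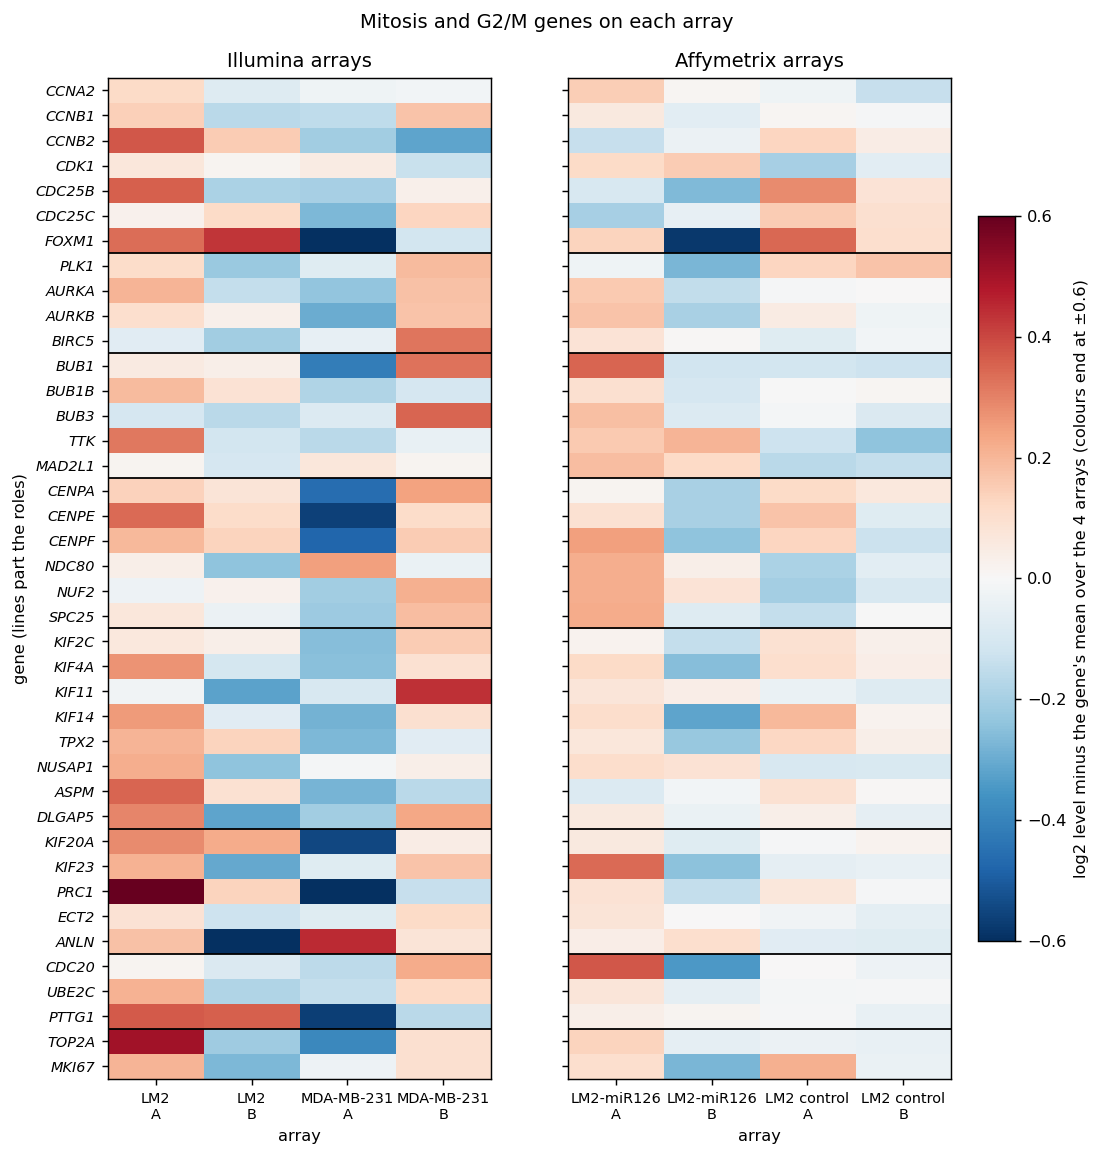
Level of each of the 40 genes (down) on each of the 8 arrays (across), as log2 minus the gene's mean over the 4 arrays of its platform, in colours that end at ±0.6, with lines between roles. LM2 array A and LM2-miR126 array A are mostly red, while MDA-MB-231 array A and LM2-miR126 array B are mostly blue.

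LM2 was first compared with MDA-MB-231, which asks whether the mitotic genes differ between the metastatic derivative and its parent. No gene of the 40 passed an adjusted p of 0.05 (limma, Benjamini-Hochberg over 12490 genes), higher or lower, while 0.841% of all genes were called higher and 1.47% lower. At an unadjusted p under 0.05, 5 genes were higher in LM2, FOXM1, PTTG1, PRC1, BUB1B and CCNB2, against 4.61% of all genes, and none was lower, against 9.82%. The smallest adjusted p was 0.146, for FOXM1. The log2 differences ran between -0.52 and 0.78, with 25 above 0 and 15 below, and their median was 0.085, against -0.041 over all genes tested. The median size without sign was 0.17 log2 for the 40 genes and 0.15 for all genes. Both LM2 arrays lay above both MDA-MB-231 arrays for 8 genes (15.9% of all genes did so) and below both for 3 genes, BIRC5, BUB3 and MAD2L1 (28.1%), and for 29 genes the groups overlapped. The 8 genes make up a share near that of all genes tested, and the 3 genes a smaller one.

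Among the regulators of entry, 6 of 7 differences lay above 0, with a median of 0.14 log2. FOXM1, the transcription factor that drives many G2 genes, read 9.69 and 9.78 on LM2 arrays A and B, against 8.70 and 9.25 on MDA-MB-231 arrays A and B. The groups did not overlap, and the MDA-MB-231 arrays differed from each other by more than the LM2 arrays did. The difference was 0.76 ± 0.24 log2 (SE, n = 2 each), with a 95% interval of 0.24 to 1.29 and an adjusted p of 0.146 (limma). A second FOXM1 probe read 8.61 and 8.55 in LM2, against 7.71 and 8.34 in MDA-MB-231, a difference of 0.55 (adjusted p = 0.353, limma over single probes). CCNB2, a B-type cyclin, read 12.06 and 11.84 in LM2, against 11.48 and 11.37 in MDA-MB-231. Its groups did not overlap and its arrays were close within each group. The difference was 0.52 ± 0.23 (SE, adjusted p = 0.340, limma).

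The other cyclins and CDK1 lay closer to 0. CCNB1, the B-type cyclin that accompanies CDK1 to the nucleus, differed by -0.02 log2, and CCNA2, cyclin A, by 0.04. The kinase gene CDK1 read 11.05 and 11.00 in LM2, against 11.03 and 10.85 in MDA-MB-231, a difference of 0.08. These 3 genes overlapped between the groups. CDC25B and CDC25C, which encode the phosphatases that activate CDK1, differed by 0.17 and 0.14 and overlapped as well.

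The kinases and the passenger complex were divided, 2 above 0 and 2 below. AURKA, a kinase of the spindle poles, and AURKB, the kinase of the passenger complex, differed by 0.06 and 0.13 log2. BIRC5, which encodes survivin, a subunit of that complex, read 10.45 and 10.31 in LM2, against 10.47 and 10.84 in MDA-MB-231. Both LM2 arrays were below both MDA-MB-231 arrays, but LM2 array A lay next to MDA-MB-231 array A. The difference was -0.27 ± 0.24 (SE, adjusted p = 0.674, limma). PLK1, the polo kinase of mitotic entry and exit, read 8.91 and 8.58 in LM2, against 8.73 and 8.99 in MDA-MB-231. Its groups overlapped, the difference was -0.11 ± 0.22 (SE, adjusted p = 0.881, limma), and it lay on the other side of 0 after quantile normalization (0.0040).

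Of the checkpoint genes, 3 were above 0 and 2 below. BUB3, which binds BUB1 and BUBR1 to kinetochores, read 12.92 and 12.86 in LM2, against 12.94 and 13.37 in MDA-MB-231. The groups did not overlap, with MDA-MB-231 array B apart from the other arrays. The difference was -0.27 ± 0.24 (SE, adjusted p = 0.699, limma), and the 3 other BUB3 probes differed by -0.10, -0.32 and -0.07. BUB1B read 7.24 and 7.13 in LM2, against 6.87 and 6.95 in MDA-MB-231, a difference of 0.28 ± 0.12 (SE, adjusted p = 0.300, limma). All 4 arrays were near the lower end of the range of the 40 genes, where the Illumina scale compresses differences. MAD2L1, which encodes the checkpoint effector MAD2, differed by -0.09 without overlap. TTK, the checkpoint kinase MPS1, and BUB1 differed by 0.21 and 0.09 with overlap.

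For the 6 centromere and kinetochore genes the median difference was 0.12, with 4 above 0. CENPE, a kinetochore motor, read 10.89 and 10.66 in LM2, against 9.99 and 10.66 in MDA-MB-231. MDA-MB-231 array A alone was low, and the groups overlapped. The difference was 0.45 ± 0.27 (SE, adjusted p = 0.502, limma), and a second CENPE probe differed by 0.03. NDC80, of the complex that grips microtubules, read 8.96 and 8.69 in LM2, against 9.17 and 8.88 in MDA-MB-231, a difference of -0.20 ± 0.22 (SE, adjusted p = 0.754, limma). Its partners NUF2 and SPC25 differed by -0.0040 and 0.03. In CENPA, the centromeric histone, and CENPF the differences were 0.21 and 0.32, with MDA-MB-231 array A the lowest array for both genes.

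The 8 spindle motors and microtubule proteins had a median of 0.13, with 5 above 0. KIF11, the motor that separates the spindle poles, read 9.43 and 9.13 in LM2, against 9.36 and 9.89 in MDA-MB-231. The groups overlapped, and MDA-MB-231 array B was the highest array. The difference was -0.34 ± 0.25 (SE, adjusted p = 0.599, limma), while a second KIF11 probe differed by 0.0023. ASPM, of the spindle poles, and TPX2, which activates aurora A, were higher in LM2 without overlap, by 0.44 and 0.34. KIF14, KIF4A and KIF2C differed by 0.19, 0.16 and 0.10, and NUSAP1 and DLGAP5 by -0.02 each, all 5 with overlap.

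The midzone and cytokinesis genes held both ends of the range. PRC1, which bundles midzone microtubules, read 12.77 and 12.25 in LM2, against 11.47 and 11.98 in MDA-MB-231. The groups did not overlap, but the arrays of each group lay farther apart than the nearest arrays of the 2 groups. The difference was 0.78 ± 0.28 (SE), with a 95% interval of 0.18 to 1.39 and an adjusted p of 0.203 (limma). KIF20A, a midzone motor, read 11.63 and 11.57 in LM2, against 10.80 and 11.39 in MDA-MB-231, a difference of 0.51 ± 0.26 (SE, adjusted p = 0.417, limma). It too did not overlap, with MDA-MB-231 array A far below the other arrays. ANLN, which encodes the contractile ring protein anillin, read 9.25 and 8.37 in LM2, against 9.52 and 9.15 in MDA-MB-231. Here LM2 array B alone was low and the groups overlapped. The difference was -0.52 ± 0.29 (SE), with a 95% interval of -1.16 to 0.11 and an adjusted p of 0.462 (limma). KIF23 and ECT2, which position the cleavage furrow, differed by -0.10 and -0.04. A second, dimmer KIF23 probe differed by -0.30 (adjusted p = 0.420, limma over single probes).

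PTTG1, which encodes the separase inhibitor securin, read 13.45 and 13.44 in LM2, against 12.52 and 12.92 in MDA-MB-231. The LM2 arrays were alike and both MDA-MB-231 arrays were lower. The difference was 0.72 ± 0.24 (SE), with a 95% interval of 0.19 to 1.25 and an adjusted p of 0.173 (limma). A second PTTG1 probe read 12.20 and 11.46 in LM2, against 11.32 and 11.89 in MDA-MB-231, a difference of 0.22 with overlap. PTTG1 has near-identical copies in the genome, whose transcripts its probes may share. CDC20 and UBE2C, the activator and the ubiquitin-conjugating enzyme of the anaphase-promoting complex, differed by -0.07 and 0.02. TOP2A, the topoisomerase that untangles chromosomes, differed by 0.29, and MKI67, which encodes the proliferation antigen Ki-67, by -0.06, both with overlap.

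**Figure D2:**
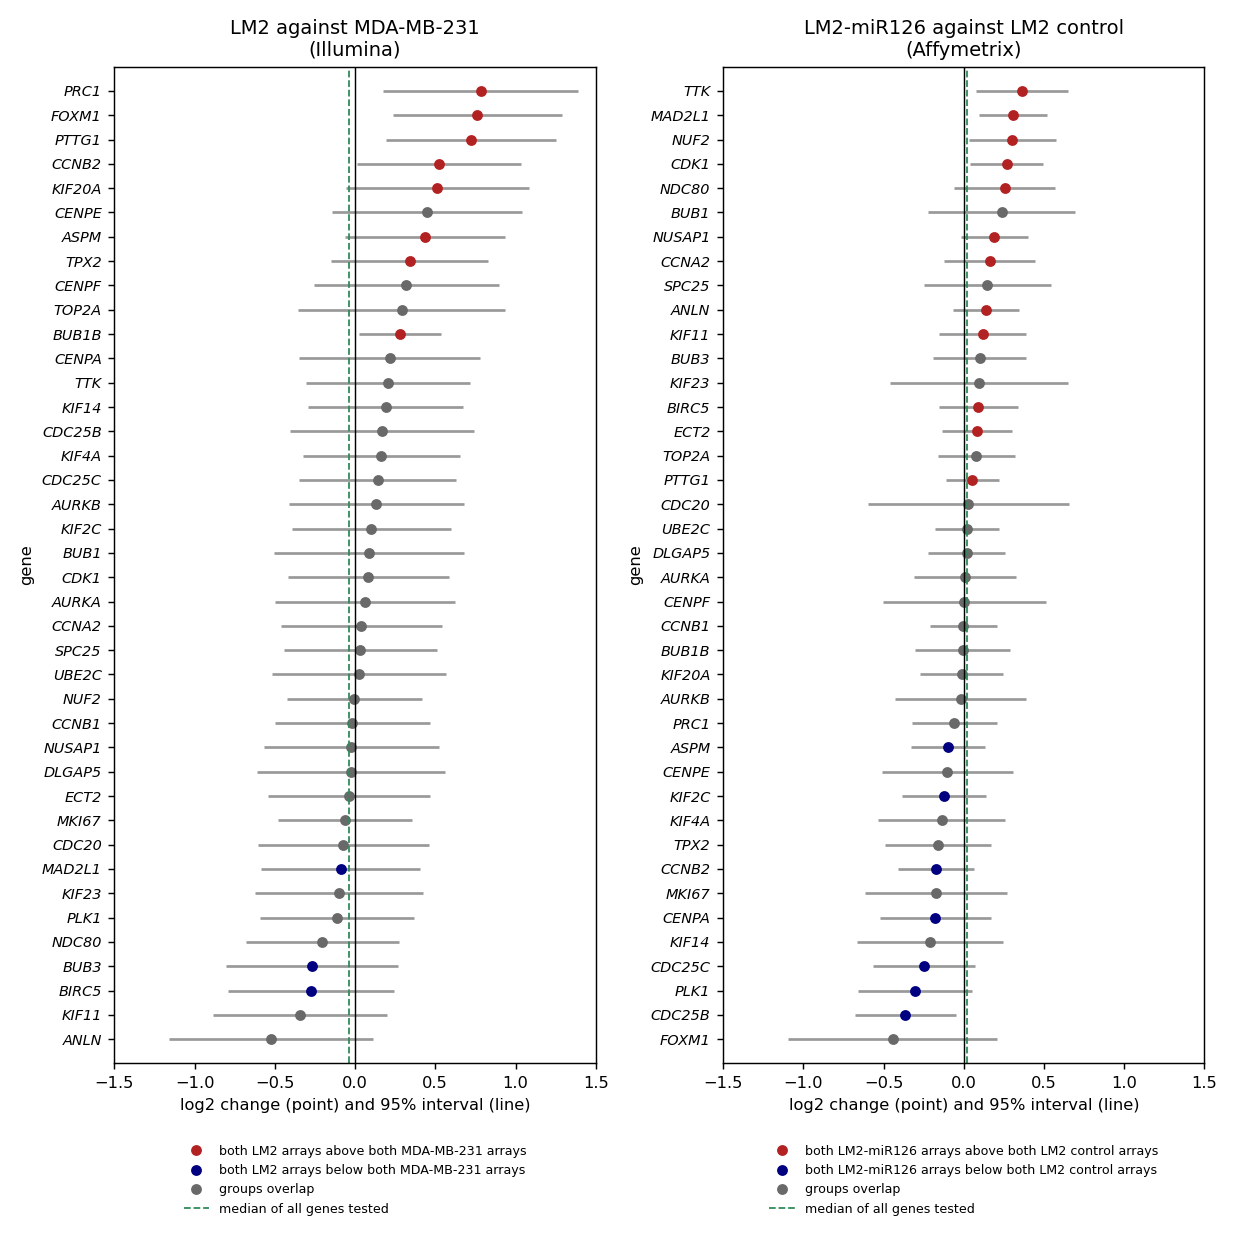
Log2 difference of each gene (points) with its 95% interval from limma (lines), ordered by size, for LM2 against MDA-MB-231 (left) and LM2-miR126 against LM2 control (right), coloured by whether the 2 groups' arrays overlap. On the left PRC1 is at the top (0.78) and ANLN at the bottom (-0.52), and on the right TTK (0.36) and FOXM1 (-0.44).

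The intervals take each gene alone and cover only the spread between these arrays, not a shift that the 40 genes share on an array. For 33 of the 40 genes the 95% interval lay within a 2-fold difference in either direction, and the exceptions were PRC1, FOXM1, PTTG1, CCNB2, KIF20A, CENPE and ANLN. From centre to bound, the intervals had a median width of 0.52 log2. Over single probes, 0 of the 60 probes were called (smallest adjusted p = 0.180, limma), against 1.24% of 28098 probes. Of the 16 genes with several probes above the filter, 13 had probes whose differences shared a sign.

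The count of calls in LM2 rested on MDA-MB-231 array B. Without it, FOXM1 (1.04, adjusted p = 0.0213, limma), PTTG1 (0.92, adjusted p = 0.0321) and PRC1 (1.04, adjusted p = 0.0432) passed as higher in LM2, and none passed as lower, against 2.35% and 3.18% of all genes called higher and lower in that fit. Without MDA-MB-231 array B the median over the 40 genes was 0.27, and 33 genes were above 0. With MDA-MB-231 array A left out the median was -0.062, with 16 above 0. Without LM2 array A it was -0.022, and without LM2 array B 0.19. Which array of a pair was used thus set the sign of the median.

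On the deposited scale, the arrays of each Illumina group differed from each other by a larger median over the 40 genes than the groups did. After quantile normalization this no longer held for LM2, while the MDA-MB-231 gap was about the size of the difference between the groups. Within LM2, 37 of the 40 genes were higher on array A than on array B, with a median difference of 0.22 log2, against 0.072 over all genes and 0.12 over genes above the upper quartile of all probes. Within MDA-MB-231, 35 of the 40 were higher on array B, with a median of -0.37 for A minus B, against -0.058 over all genes and -0.10 over genes above the upper quartile. FOXM1 (-0.09) and ANLN (0.88) were the ends of the range in LM2, and BUB1 (-0.74) and ANLN (0.37) in MDA-MB-231. LM2 array A was the highest of the 4 Illumina arrays for 22 genes and MDA-MB-231 array A the lowest for 23. Over all genes tested, LM2 array A was the highest for 26.8% and MDA-MB-231 array A the lowest for 28.8%. Quantile normalization brought the LM2 gap to 0.035, with 23 of 40 genes higher on array A, and the MDA-MB-231 gap to -0.22, with 31 of 40 higher on array B, while the median between the groups became 0.22. The part of culture density, RNA quality or hybridization in these gaps was not tested.

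**Figure D3:**
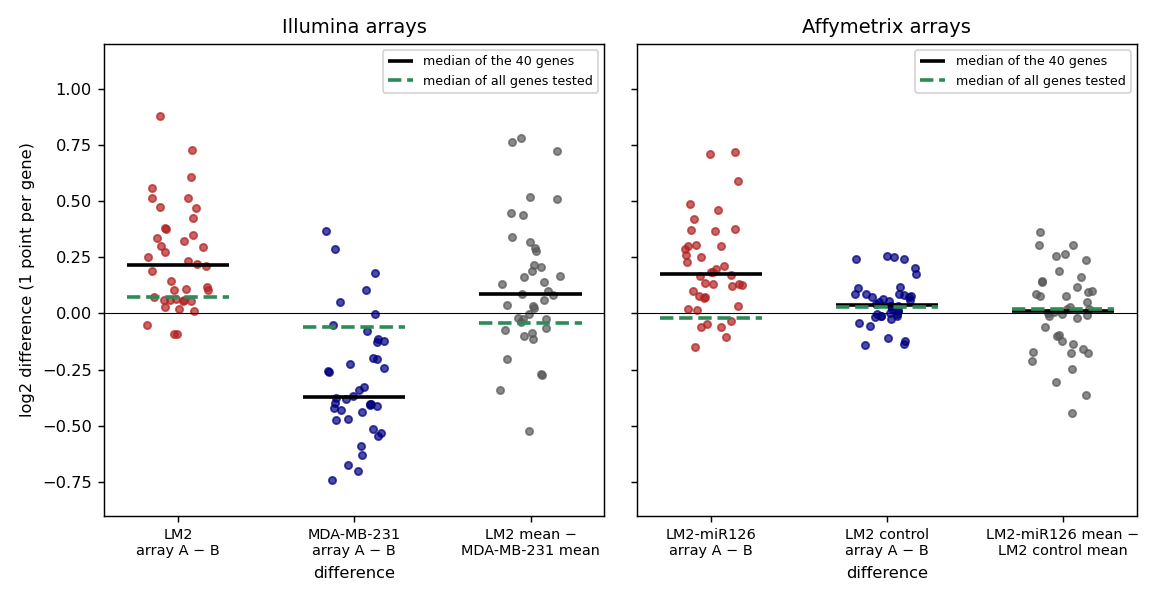
Log2 difference of each of the 40 genes (1 point per gene) between arrays A and B of each group and between the means of the groups, with the median of the 40 genes (solid) and of all genes tested (dashed). Within MDA-MB-231 the median of the 40 genes was -0.37, against 0.085 between the Illumina groups, and within LM2-miR126 it was 0.18, against 0.013 between the Affymetrix groups.

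LM2-miR126 cells were then compared with LM2 control cells, which asks whether over-expression of miR-126 in the metastatic line moved the same genes. Again none of the 40 passed an adjusted p of 0.05 (limma, Benjamini-Hochberg over 12923 genes), and 0% of all genes did, in either direction. At an unadjusted p under 0.05, 4 genes were higher, MAD2L1, TTK, CDK1 and NUF2, against 3.37% of all genes, and 1 was lower, CDC25B, against 4.44%. The smallest adjusted p was 0.509, for MAD2L1. The log2 differences ran between -0.44 and 0.36, with 22 above 0 and 18 below, and a median of 0.013, against 0.020 over all genes. Both LM2-miR126 arrays lay above both LM2 control arrays for 12 genes (21.4% of all genes did so) and below both for 7 genes (19% of all genes), and the groups overlapped for 21. Read against those shares, 12 of 40 is somewhat above the share of all genes tested and 7 of 40 near it. On the deposited scale, without quantile normalization, 0 of the 40 genes had an unadjusted p under 0.05 (limma). The smallest adjusted p on that scale was 0.806 (limma).

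The regulators of entry lay mostly below 0, 5 of 7, with a median of -0.17 log2. FOXM1 read 4.49 and 3.78 on LM2-miR126 arrays A and B, against 4.70 and 4.46 on LM2 control arrays A and B. Array B of LM2-miR126 alone was low and the groups overlapped. The difference was -0.44 ± 0.25 log2 (SE, n = 2 each), with a 95% interval of -1.10 to 0.21 and an adjusted p of 0.722 (limma). CDC25B read 4.48 and 4.31 in LM2-miR126, against 4.87 and 4.66 in LM2 control. The groups did not overlap. The difference was -0.36 ± 0.12 (SE), with a 95% interval of -0.68 to -0.051 and an adjusted p of 0.575 (limma).

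CDC25C read 2.60 and 2.75 in LM2-miR126, against 2.95 and 2.90 in LM2 control, a difference of -0.25 ± 0.12 (SE, adjusted p = 0.695, limma). By these probe sets the 2 phosphatase genes lay on the same side, neither with overlap. The other, dimmer CDC25C probe sets differed by -0.24 and 0.11. CCNB2 was also lower without overlap, by -0.17, while CCNB1 differed by -0.0026 with overlap. CDK1 read 5.42 and 5.46 in LM2-miR126, against 5.11 and 5.24 in LM2 control, a difference of 0.27 ± 0.09 (SE, adjusted p = 0.574, limma). Its probe sets disagreed in size. A dimmer set read 1.54 and 1.61 in LM2-miR126, against 0.51 and 0.75 in LM2 control, a difference of 0.95 (adjusted p = 0.520, limma over single probe sets), and 2 further sets differed by 0.04 and 0.02.

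PLK1 read 2.93 and 2.68 in LM2-miR126, against 3.09 and 3.13 in LM2 control. The groups did not overlap, and LM2-miR126 array B was the lowest array. The difference was -0.30 ± 0.14 (SE, adjusted p = 0.667, limma). The other genes of the kinase group lay near 0, AURKA at 0.0082, AURKB at -0.02 and BIRC5 at 0.09, of which BIRC5 alone did not overlap. The other AURKA probe sets differed by 0.54 and -0.15.

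The checkpoint genes lay mostly above 0, 4 of 5, with a median of 0.24. That median rested on LM2-miR126 array A, at 0.0060 without array A and 0.34 without array B. TTK read 3.79 and 3.84 in LM2-miR126, against 3.51 and 3.39 in LM2 control. The groups did not overlap and the arrays of each group were close. The difference was 0.36 ± 0.11 (SE), with a 95% interval of 0.078 to 0.65 and an adjusted p of 0.565 (limma). MAD2L1 read 5.30 and 5.23 in LM2-miR126, against 4.95 and 4.97 in LM2 control, a difference of 0.31 ± 0.08 (SE, adjusted p = 0.509, limma). It too was without overlap, but its other probe sets differed by 0.26 and -0.10. BUB1 read 4.14 and 3.68 in LM2-miR126, against 3.68 and 3.66 in LM2 control. By this probe set the difference was 0.24 ± 0.18 (SE, adjusted p = 0.770, limma) and came from LM2-miR126 array A alone. A dimmer BUB1 set read 3.02 and 3.01 in LM2-miR126, against 2.71 and 3.01 in LM2 control. There the difference was 0.16, with LM2 control array A alone low.

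NUF2 and NDC80, partners in the same kinetochore complex, lay on the same side. NUF2 read 4.74 and 4.61 in LM2-miR126, against 4.32 and 4.43 in LM2 control, a difference of 0.30 ± 0.11 (SE, adjusted p = 0.589, limma). NDC80 read 4.10 and 3.92 in LM2-miR126, against 3.70 and 3.82 in LM2 control, a difference of 0.25 ± 0.12 (SE, adjusted p = 0.685, limma). Neither overlapped between the groups, and SPC25, of the same complex, differed by 0.15 with overlap. CENPA read 2.25 and 2.05 in LM2-miR126, against 2.35 and 2.30 in LM2 control, a difference of -0.18 ± 0.13 (SE, adjusted p = 0.773, limma). CENPE and CENPF differed by -0.10 and 0.0025, both with overlap.

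The spindle motors and microtubule proteins had a median of -0.11, with 5 of 8 below 0. That median was -0.14 without LM2-miR126 array A and 0.023 without array B. KIF14, a motor of the midzone and cleavage furrow, read 3.73 and 3.31 in LM2-miR126, against 3.82 and 3.65 in LM2 control. The groups overlapped, with LM2-miR126 array B lowest. The difference was -0.21 ± 0.18 (SE, adjusted p = 0.796, limma). A second, dimmer KIF14 set read 3.37 and 2.995 in LM2-miR126, against 3.67 and 3.47 in LM2 control. It did not overlap, and it differed by -0.39 (adjusted p = 0.670, limma over single probe sets). NUSAP1 and KIF11 were higher without overlap, by 0.19 and 0.12, and KIF2C and ASPM lower without overlap, by -0.12 and -0.10. PRC1, the gene highest in LM2 against MDA-MB-231, differed by -0.06 here, and ANLN, the lowest there, by 0.14.

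CDC20 shows how far the LM2-miR126 arrays lay apart. It read 5.16 and 4.44 in LM2-miR126, against 4.79 and 4.75 in LM2 control. The LM2-miR126 arrays lay on either side of both control arrays, and the difference of the means was 0.03. PTTG1 and UBE2C differed by 0.05 and 0.02, TOP2A by 0.08 and MKI67 by -0.17.

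**Figure D4:**
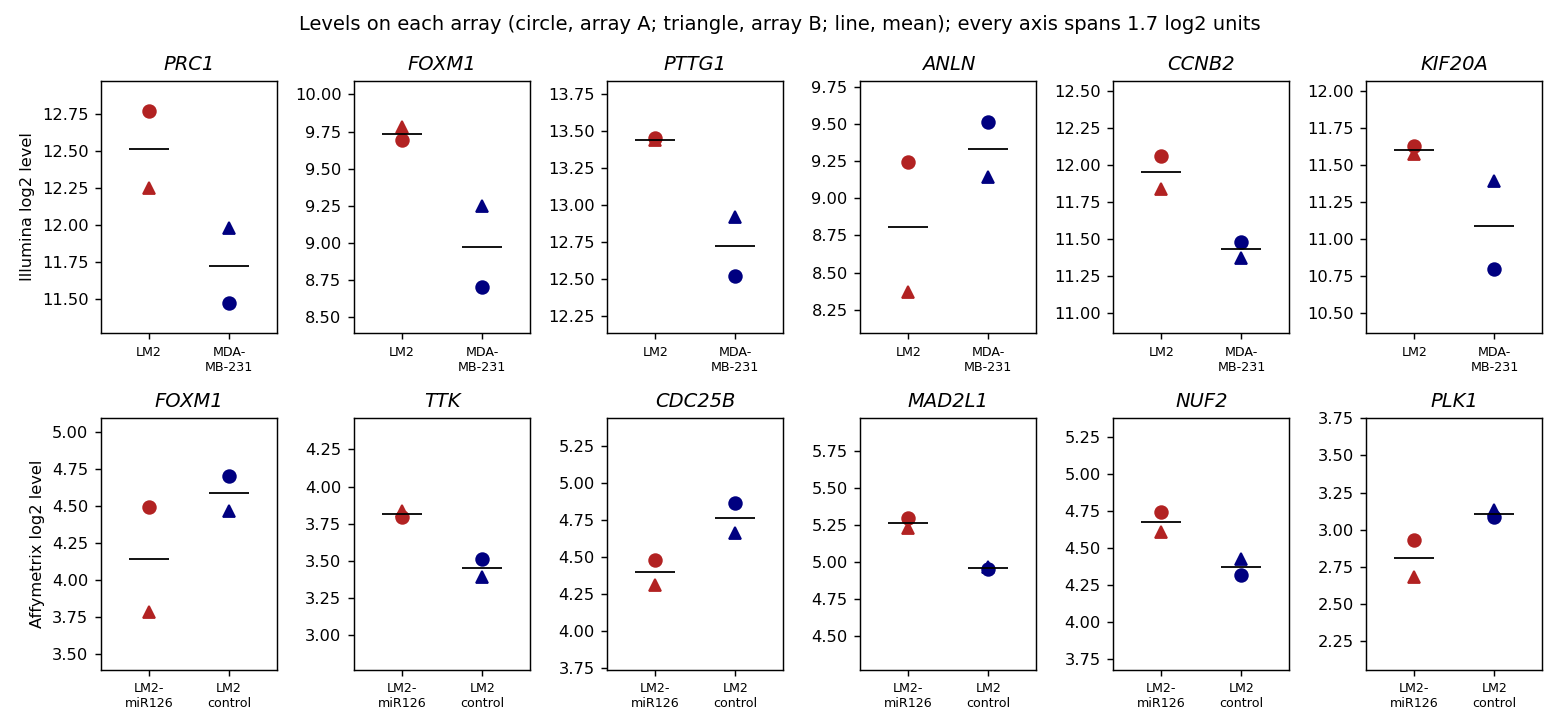
Log2 level on each array (circle, array A, triangle, array B, line, mean) for the 6 genes with the largest differences in each comparison, LM2 and MDA-MB-231 above, LM2-miR126 and LM2 control below. FOXM1 was at 9.69 and 9.78 in LM2, above both MDA-MB-231 arrays, and at 4.49 and 3.78 in LM2-miR126, where array A lay between the control arrays.

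For 39 of the 40 genes the 95% interval lay within a 2-fold difference, FOXM1 being the exception. Over single probe sets, 0 of 82 were called (smallest adjusted p = 0.520, limma), against 0 of 41091. Of the 19 genes with several probe sets above the filter, 9 had sets whose differences shared a sign.

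The LM2-miR126 arrays likewise differed from each other by a larger median than the groups did. On array A, 34 of the 40 genes were higher than on array B, with a median gap of 0.18, against -0.022 over all genes and 0.027 over genes above the upper quartile, and the range ran between -0.15 for CDC25C and 0.72 for CDC20. Within LM2 control the median gap was 0.038, against 0.028 over all genes. LM2-miR126 array A was the highest of the 4 arrays for 25 genes and array B the lowest for 21, against 32.4% and 29.9% of all genes. On the deposited scale, without quantile normalization, all 40 genes were higher on LM2-miR126 array A than on array B, with a median gap of 0.35, as were 63.6% of all genes and 75% of genes above the upper quartile, whose median gap was 0.24. CD14, a gene of the blood cell list, was at -0.29 on LM2-miR126 array A and 1.66 on array B, against 0.68 and 0.80 in LM2 control. CD3E, of the same list, was at 0.88 on LM2-miR126 array A and 1.29 on array B. Two-array levels below the filter were -1.90 and -2.02 for PTPRC, which was higher on array A, and -0.26 and -0.07 for ITGAM. Of the marker lists, A minus B in LM2-miR126 had a median of -1.18 over the 2 blood cell genes tested and -0.33 over 3 endothelial genes. It was -0.43 over 3 fibroblast genes, 0.011 over 3 melanocyte genes and 0.15 over 7 genes of the breast epithelium and receptor status list. The part of these markers in the gaps of the 40 genes was not tested.

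Leaving out an LM2-miR126 array changed the calls, and the direction of most of them went with the array left out. Without array A, 6 genes were called higher and 15 lower, against 17.8% and 18.1% of all genes, and FOXM1 was among the lower ones (-0.80, adjusted p = 5.01e-15, limma). Without array B, 15 were called higher and 3 lower, CDC25B, CDC25C and CCNB2, against 19.8% and 17.4% of all genes. The median over the 40 genes was -0.073 without array A and 0.10 without array B. In these fits the remaining LM2-miR126 array is assumed to vary like the 2 control arrays, which were close to each other. On both LM2-miR126 arrays CDK1, TTK, MAD2L1, NUF2 and NUSAP1 lay above the control arrays and CDC25B below them. They are part of the 12 higher and 7 lower genes without overlap, against 21.4% and 19% of all genes. CDC20, CENPF and AURKA instead lay above the control arrays on LM2-miR126 array A and below them on array B.

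The 2 comparisons share no array. Of the 40 genes, 15 were above 0 in LM2 against MDA-MB-231 and below 0 in LM2-miR126 against LM2 control, 12 were below 0 in the first and above 0 in the second, 10 were above 0 in both and 3 below 0 in both, CCNB1, PLK1 and MKI67. FOXM1, CCNB2, CENPE and KIF14 belonged to the largest group of these and ANLN, KIF11, BIRC5 and BUB3 to the next. Across the 40 genes Pearson's r between the differences was -0.42 and Spearman's rho -0.48. This is a description across genes, which are not independent replicates and share the same arrays and the same gaps between them.

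**Figure D5:**
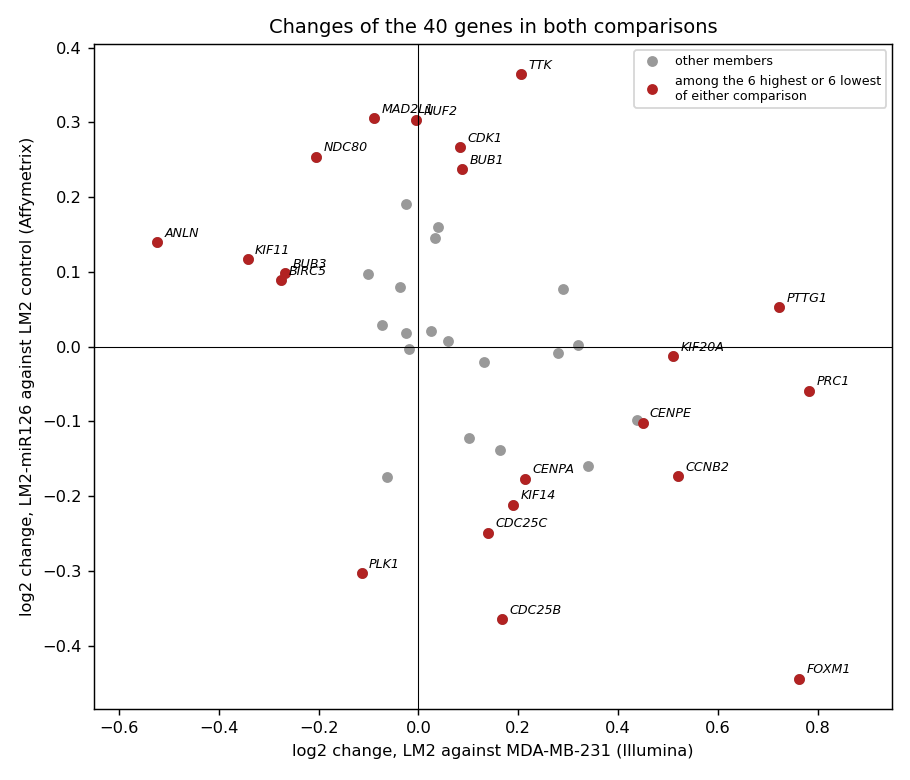
Log2 difference of each of the 40 genes in LM2 against MDA-MB-231 (x axis) and in LM2-miR126 against LM2 control (y axis), named in red where among the 6 highest or 6 lowest in either. The lower right holds 15 genes, FOXM1 among them (0.76 and -0.44), and the upper left 12, ANLN among them (-0.52 and 0.14).

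The 20 genes with both a CHR and a CCAAT box had a median of 0.058 in LM2 against MDA-MB-231, and the 13 genes without both had 0.10. In LM2-miR126 against LM2 control the medians were 0.010 and -0.0026. No test was made of these medians, and all 4 are smaller in size than the median gap between arrays A and B in LM2, MDA-MB-231 and LM2-miR126 on the scale of the fits.

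The wider mitotic programme was read from 70 other genes, chosen as further subunits and regulators of the same processes. In LM2 against MDA-MB-231, 65 of them were tested, 1 was called higher and none lower (limma, 5 higher and 1 lower at an unadjusted p under 0.05), with a median of -0.0041. Over all genes 0.841% and 1.47% were called higher and lower, and 4.61% and 9.82% had an unadjusted p under 0.05. The called gene was MAD1L1, which encodes the protein that holds MAD2 at kinetochores. It read 10.50 and 10.14 in LM2, against 8.49 and 9.22 in MDA-MB-231, a difference of 1.46 ± 0.27 (SE, adjusted p = 0.0204, limma). A second MAD1L1 probe differed by -0.11, and with the mean of both probes the gene was not called (0.68, adjusted p = 0.128). It was also not called without LM2 array A (1.28, adjusted p = 0.185) or LM2 array B (1.64, adjusted p = 0.0553), or with all arrays and a variance prior without a trend (1.46, adjusted p = 0.0848). In LM2-miR126 against LM2 control, 69 were tested and none was called (limma, 5 higher and 1 lower at an unadjusted p under 0.05, against 3.37% and 4.44% of all genes), with a median of 0.050. The smallest p belonged to FBXO5, the inhibitor of the anaphase-promoting complex, at 0.68 (adjusted p = 0.462, limma), and to HMMR, a spindle protein, at 0.44 (adjusted p = 0.512, limma). These genes shared the gaps between arrays, with 50 of 65 higher on LM2 array A than on array B and a median of -0.28 for A minus B in MDA-MB-231.

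A further 29 genes belonged to the DREAM and MuvB complexes, the E2F factors, NF-Y and the CDK inhibitors, which govern the cell cycle genes. None was called in either comparison (limma). At an unadjusted p under 0.05 there were 0 higher and 3 lower of 24 tested in LM2, against 4.61% and 9.82% of all genes, and 3 higher and 1 lower of 25 tested in LM2-miR126, against 3.37% and 4.44%. The smallest p in LM2 against MDA-MB-231 belonged to E2F5 (-0.62, adjusted p = 0.154, limma) and NFYA (-0.52, adjusted p = 0.203, limma), and a second, dim NFYA probe differed by -0.01. In LM2-miR126 against LM2 control they belonged to RB1 (0.57) and RBBP4 (0.54), both with an adjusted p of 0.484 (limma). The other RBBP4 probe sets disagreed, at 0.59, 0.02, -0.04, -0.49 and -0.26, and the mean of its sets differed by 0.06 (adjusted p = 0.919, limma). The second RB1 set differed by 0.46.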

How the data were processed

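Biotin-labelled total RNA (mirVana extraction, per the labels' protocols) was measured on 8 arrays. The authors deposited processed intensity values, linear in both tables. How they were scanned and normalized is not given in the sources used here, and no genome build is named. No detection p-values were used, so no level was called absent. The lowest deposited Illumina intensities were 43.21 to 46.47, so background remains and differences of dim genes are understated.

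Probes with 1 gene symbol in the platform annotation (28098 and 41091) were kept and updated by Entrez identifier. The probe of highest mean stood for a gene. Illumina values were taken as log2(intensity + 16) on the deposited scale, whose quartiles differed by 0.0493 log2. Affymetrix values were taken as log2 and quantile normalized, since their quartiles differed by 0.165 log2, above the limit of 0.1. limma 3.58.1 in R 4.3.3 (lmFit, eBayes with a variance trend) was fitted within each table over all genes above the median probe, two-sided, and p-values were adjusted by Benjamini-Hochberg, with 0.05 as the threshold. The steps were tested on simulated data. The smallest p that exact permutation allows with 2 arrays a group is 0.3333.

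The members, their roles and the other lists were chosen with earlier results of these data known. Array values are given for the 6 highest and 6 lowest members of each comparison, and for the other lists the called genes or the 2 of smallest p. BUB1B, CDC20, CD14 and other members or probes outside that rule were named after their values were seen. Alternatives covered scaling, pseudocount, filter, probe rule, variance prior, the replicate letter as a block and each array left out. Promoters and microRNAs come from RefSeq tables of GRCh38.p14. Plots used Python 3.11.15 and matplotlib 3.10.9.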

Additional observations from a re-analysis of the deposited data

How the results depend on the processing

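No member was called in either comparison under any alternative that kept all 4 arrays of a table, which includes quantile normalization, other pseudocounts, filters, probe rules and variance priors and, for the replicate block, a smallest adjusted p over the members of 0.0749 (LM2 against MDA-MB-231, 0 called) and 0.413 (LM2-miR126 against LM2 control, 0 called). Leaving out 1 array at a time gave 0 to 3 members called higher in LM2, the 3 without MDA-MB-231 array B. In LM2-miR126 it gave 0 to 15 called higher and 0 to 15 called lower, namely 6 higher and 15 lower without array A and 15 higher and 3 lower without array B. There the construction of the fit bears on the count, since the spread then came from the 2 control arrays alone. The median over members ran between -0.062 and 0.27 in LM2 and between -0.073 and 0.10 in LM2-miR126 when 1 array was left out, and quantile normalization of the Illumina arrays moved it to 0.22, with 33 of 40 above 0. PLK1 in LM2 against MDA-MB-231 changed sign after quantile normalization (0.0040) and ran between -0.28 and 0.054 when 1 array was left out, above 0 without LM2 array B (0.054) and MDA-MB-231 array B (0.018). The cause was not tested. Over all genes, limma called 105 higher and 184 lower in LM2, against 209 and 411 with the replicate block and 41 and 66 with a variance prior without a trend, and in LM2-miR126 0 and 0, against 15 and 36 with the replicate block. The labels do not say what the letters A and B mark. The A minus B gaps of the 2 groups correlated by 0.128 over all genes and 0.325 over the members on the Illumina arrays, and by 0.060 and 0.305 on the Affymetrix arrays.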

Other observations

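The 36 genes of the phase before, G1/S and DNA replication, were set beside the mitotic genes. In LM2 against MDA-MB-231, 33 were tested and none was called (limma, 0 higher and 1 lower at an unadjusted p under 0.05, against 4.61% and 9.82% of all genes). Their median was -0.13 log2, against -0.041 over all genes. The LM2 arrays lay below both arrays of the parent for 15 of the 33 (28.1% of all genes) and above both for 5 (15.9%). The smallest p belonged to CCNE1, a cyclin of S phase entry (-0.59, adjusted p = 0.143, limma, with a second, dim probe at -0.02), and TYMS, thymidylate synthase (-0.48, adjusted p = 0.393, limma). Quantile normalization brought the median of these genes to -0.010. Dropping array B of the parent brought it to 0.016, and dropping its array A to -0.21. In LM2-miR126 against LM2 control, 35 were tested and none was called (limma, 5 higher and 0 lower at an unadjusted p under 0.05, against 3.37% and 4.44% of all genes), with 31 above 0 and a median of 0.22, against 0.013 for the 40 mitotic genes. Both LM2-miR126 arrays lay above both control arrays for 17 of them (21.4% of all genes did so) and below both for 0 (19%). CDK2, the kinase of S phase entry, differed by 0.41 (adjusted p = 0.484, limma), and MCM6, a subunit of the replicative helicase, by 0.39 (adjusted p = 0.505, limma). The size of this list rested on LM2-miR126 array A, on which 34 of 35 were higher than on array B, by a median of 0.49. The median was 0.051 without array A and 0.46 without array B.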
